A study of Rattus norvegicus with 2 samples.

Results

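The transcription factors that specify sympathetic neurons were examined on 2 rat oligonucleotide arrays, and 9 genes were taken by name: Phox2a, Gata2, Isl1, Hand1, Hand2, Sox4, Sox11, Ebf1 and Tlx3. They were read by 13 probe sets that carry exactly 1 gene symbol in the platform annotation, of 15866 probe sets that are not controls (10411 named genes). The first array held RNA from sympathetic neurons taken out of co-culture with myocytes, their muscle target, and the other held RNA from sympathetic neurons kept without myocytes. Both groups were labelled as rat sympathetic neurons with 1 array each. The labels give no strain, age, days in culture or source of the myocytes. The neurons of the co-culture were lifted off the dish with EDTA, which detaches less adherent cells. The description field of the co-culture sample speaks of neurons without a target, against its title and source name, and the title was followed. The series asked which transcripts accompany the arrest of growth when these neurons meet their target. With 1 array per condition, no value below was tested, and each ratio compares these 2 arrays, not the conditions.

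Sympathetic neurons arise from the neural crest. In mouse and chick embryos, bone morphogenetic proteins from the dorsal aorta switch on a network of factors that includes Phox2a, Hand2, Gata2, Gata3 and Insm1. This network turns on the enzymes and transporters of noradrenaline, above all tyrosine hydroxylase (Th) and dopamine beta-hydroxylase (Dbh), and parts of it stay on in the mature neuron. Phox2a and Isl1 are homeodomain proteins, Gata2 is a zinc finger protein, and Hand1 and Hand2 are basic helix-loop-helix (bHLH) proteins. Sox4 and Sox11 are related HMG-box proteins of newly formed neurons, Ebf1 is a helix-loop-helix factor also known from B lymphocytes, and Tlx3 is a homeodomain protein best known from sensory neurons.

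Intensities were on the deposited linear scale, where the array median was 175 in neurons from co-culture and 186 in neurons alone. Values under the floor, a pooled 20th percentile (39.6), were raised to it before the log2 ratio, co-culture over alone, was formed. A probe set was kept by the signal filter if it reached its array's median in at least 1 array. Of the 13 member probe sets, 7 from 5 genes (Phox2a, Gata2, Isl1, Hand2 and Sox4) did so, 6 of them in both arrays and 1, of Hand2, in neurons alone only. The 6 below it read Sox11, Ebf1, Tlx3, Hand1 (2 probe sets) and a further probe set of Sox4. Across all 8308 probe sets above the filter the median log2 ratio was -0.02 (SD 0.31), so the arrays were close.

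Several of the lineage factors gave a weaker signal in neurons from co-culture. Of the 7 member probe sets above the filter, 6 were lower and 1 was higher, while 54% of all probe sets above the filter were lower. The member median was -0.58 on the log2 scale. A signal at least 1.5-fold lower was seen for 3 of the 7, 1 each of Gata2, Hand2 and Sox4, and for 4.24% of all probe sets above the filter. A signal at least 2-fold lower was seen for 1, of Hand2, against 0.818% of all, but that probe set passed the filter through neurons alone, where it is high, so the count supports nothing by itself. The same Hand2 probe set is among the 6 lower and the 3 at least 1.5-fold lower, and enters the median of -0.58, with the same limit. Counting a gene by its brightest probe set, the 5 genes above the filter had a median of -0.23, since the brightest probe sets of Hand2 and Sox4 had ratios near 0. Without the filter, 9 of the 13 member probe sets were lower (48.3% of all probe sets) and 2 were at least 2-fold lower (1.34% of all), the second being of Hand1. No member was 2-fold higher, as 0.337% of all probe sets above the filter were.

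**Figure D1:**
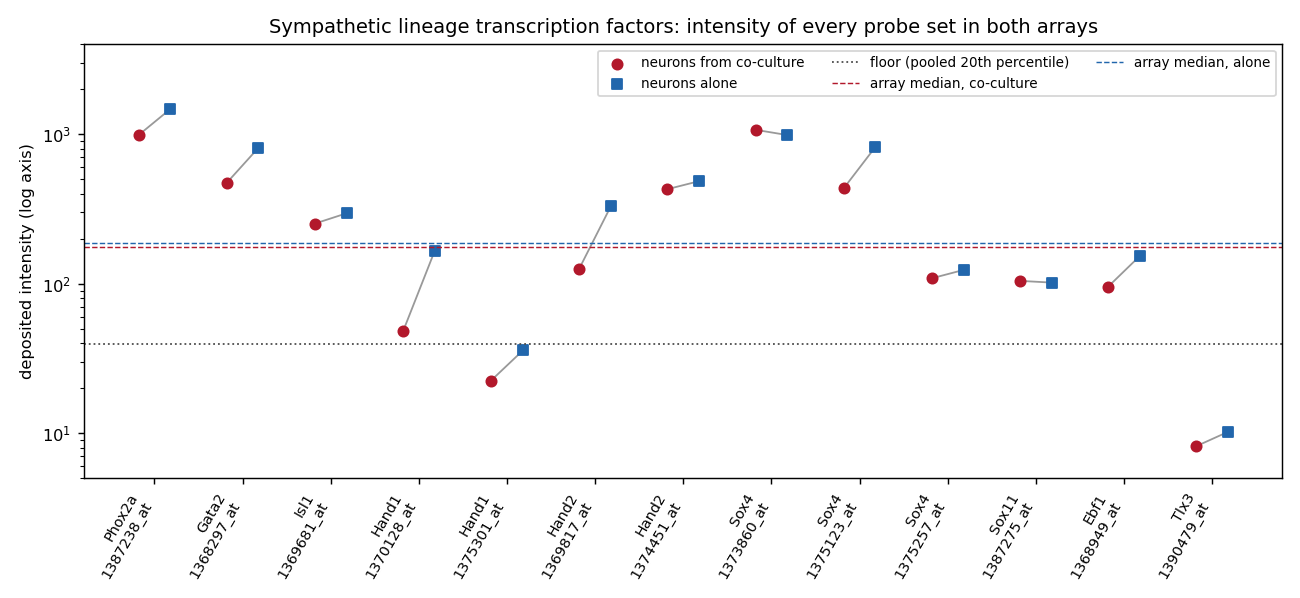
Deposited intensity (log axis) of each of the 13 member probe sets in neurons from co-culture (circles) and neurons alone (squares), with the array medians and the floor as lines. Phox2a stands at 984 in co-culture and 1469.5 alone, Hand2 on 1 probe set at 126 and 331, and Tlx3 lies under the floor in both arrays.

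Since there were no replicate arrays, the spread was taken from genes with several probe sets. Genes were split by signal into 4 groups of 187 or 188. For a single probe set, the log2 ratio had an SD of 0.36 in the dimmest group, then 0.28, 0.27 and, in the brightest, 0.21. It was 0.36 below the filter (628 genes). Many ratios there were 0 because both arrays were raised to the floor, which narrows that SD. This SD measures how far probe sets of 1 gene differ between the same 2 RNA samples, and does not hold the variation between cultures. By it, 5 of the 13 member probe sets were lower by more than 2 SD, 1 by 1 to 2 SD and 7 lay within 1 SD. The 5 include the Hand2 probe set that passed the filter through neurons alone only, where it is high. They also include a Hand1 probe set close to the floor in co-culture, whose ratio became -0.47 with the floor at the pooled 40th percentile. With these in it, the count supports nothing by itself. Of all 15866 probe sets, 4.51% were lower by more than 2 SD and 12.8% by 1 to 2 SD of their signal group.

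The promoters of 3 members that were lower and of the target Dbh are printed to show what homeodomain proteins of this network could meet at their start sites. The windows come from RefSeq on the GRCr8 assembly and run from 250 bases before to 50 bases after the annotated start, 5′ to 3′ on the gene's strand. Phox2a lies at chr1:165590507-165590806 (+), Gata2 at chr4:122216031-122216330 (+), Hand2 at chr16:37931439-37931738 (-) and Dbh at chr3:30886078-30886377 (+). Capitals mark the homeodomain core, ATTA or TAAT, which are 1 motif read on either strand and can overlap each other.
Phox2a: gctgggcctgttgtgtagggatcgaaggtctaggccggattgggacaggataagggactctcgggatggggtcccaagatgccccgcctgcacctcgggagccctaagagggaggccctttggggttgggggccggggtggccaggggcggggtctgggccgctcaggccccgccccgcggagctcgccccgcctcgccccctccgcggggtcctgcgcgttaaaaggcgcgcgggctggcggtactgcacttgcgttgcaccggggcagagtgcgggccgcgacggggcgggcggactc
Gata2: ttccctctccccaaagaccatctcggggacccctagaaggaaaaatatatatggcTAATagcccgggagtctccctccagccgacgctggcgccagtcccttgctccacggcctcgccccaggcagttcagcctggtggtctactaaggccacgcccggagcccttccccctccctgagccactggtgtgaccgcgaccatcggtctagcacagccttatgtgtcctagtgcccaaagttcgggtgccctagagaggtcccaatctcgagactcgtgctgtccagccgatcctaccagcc
Hand2: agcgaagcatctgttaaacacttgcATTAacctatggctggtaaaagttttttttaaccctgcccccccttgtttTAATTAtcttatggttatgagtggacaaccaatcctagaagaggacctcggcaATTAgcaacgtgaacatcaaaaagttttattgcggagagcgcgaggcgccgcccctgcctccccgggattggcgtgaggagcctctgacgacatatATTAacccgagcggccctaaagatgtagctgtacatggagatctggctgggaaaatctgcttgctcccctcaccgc
Dbh: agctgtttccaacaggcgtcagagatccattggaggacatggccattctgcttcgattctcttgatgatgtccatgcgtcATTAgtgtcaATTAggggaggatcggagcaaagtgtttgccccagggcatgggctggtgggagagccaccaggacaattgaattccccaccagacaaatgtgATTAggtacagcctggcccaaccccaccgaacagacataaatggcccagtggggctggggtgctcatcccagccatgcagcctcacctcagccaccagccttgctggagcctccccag
Dbh held 3 cores, starting at -170, -160 and -68 from the start site. The pair at -170 and -160 lies where Phox2a is known to bind in the rat promoter. Hand2 held 5, Gata2 held 1 and Phox2a none. Of 33469 rat promoter windows of this length, 60.6% held at least 1 core and 21.8% held 3 or more.

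Of the 9 members, 8 had a promoter window in the RefSeq table, and Sox4 had none. Homeodomain cores were found in 6 of the 8, the exceptions being Phox2a and Hand1. The E-box CANNTG, which reads the same on both strands and is the site of bHLH proteins, was in 5 of the 8 and in 72.1% of all windows, with 2 in Hand2 and in Dbh and 1 in Phox2a. The letters GATA or their reverse complement TATC were in 6 of the 8 and in 60.5% of all. The Th window held 2 homeodomain cores and 1 cAMP response element, TGACGTCA, which 1.83% of all windows held. These are matches of letters in a window, not binding sites found in these cells.

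Phox2a, the homeodomain factor that binds the Dbh promoter, had an intensity of 984 in neurons from co-culture and 1469.5 in neurons alone (probe set 1387238_at). It was thus well above the median of both arrays and lower in co-culture, and its own promoter window held no homeodomain core. The log2 ratio was -0.58, a 1.49-fold lower signal and 2.81 times the SD of a probe set this bright. Of the 1942 probe sets in that signal group, 1.08% had a ratio this low or lower.

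Gata2, a zinc finger factor that is needed for noradrenergic differentiation in chick, had the lowest ratio of the 3 members with a single probe set above the filter. Its intensity was 472 in neurons from co-culture and 809 in neurons alone (1368297_at). The log2 ratio of -0.78 was a 1.72-fold lower signal, or 2.91 SD, and 1.15% of the 1739 probe sets of that signal group were as low. Isl1, the LIM homeodomain factor that sympathetic and sensory neurons need in mouse, stood at 252 in neurons from co-culture and 295 in neurons alone (1369681_at). Its log2 ratio of -0.23 lay within 1 SD (0.36) of no difference, and 32.6% of its signal group was as low.

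**Figure D2:**
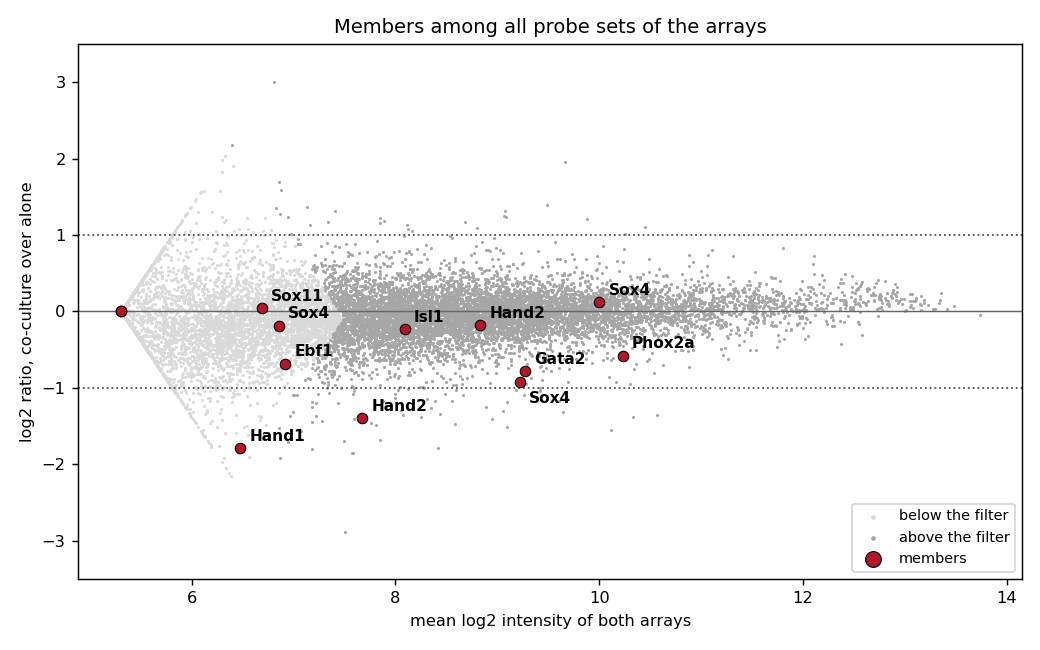
Log2 ratio (co-culture over alone) against mean log2 intensity for every probe set (grey, darker above the filter), with the members in red. Phox2a, Gata2, a Sox4 and a Hand2 probe set lie along the lower edge of the cloud at their signal; the unlabelled red point at 0 is Tlx3 and a Hand1 probe set, both set to the floor.

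Hand2, a bHLH factor that drives and maintains the noradrenergic genes in mouse, was read by 2 probe sets that disagreed. On 1369817_at, annotated with a RefSeq mRNA, the intensity was 126 in neurons from co-culture and 331 in neurons alone. That is a log2 ratio of -1.39, a 2.63-fold lower signal and 3.90 SD, and 0.574% of the 2963 probe sets in its signal group were as low. On 1374451_at, annotated with another GenBank record, it was 428 in neurons from co-culture and 484 in neurons alone. The second ratio, -0.18, was within 1 SD (0.28) of no difference, and 30.4% of its signal group was as low. The first probe set passed the filter through neurons alone only, since 126 lies under the co-culture array's median. Both readings had the same sign but differed by 1.21 on the log2 scale.

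Hand1, the close relative of Hand2, was dim. Its probe set 1370128_at gave 47.9 in neurons from co-culture and 166 in neurons alone, both under the array medians. The log2 ratio was -1.79, 3.46-fold lower and 4.99 SD of dim probe sets, and 0.119% of the 7558 probe sets below the filter were as low. That group holds many ratios of 0 from probe sets under the floor in both arrays, which narrows the SD and lowers this share. The value in co-culture was close to the floor, and with the floor at the pooled 40th percentile (119) the ratio became -0.47. The other probe set, 1375301_at, read 22.5 in neurons from co-culture and 35.8 in neurons alone, under the floor in both arrays, so it has no ratio.

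The Sox genes also split by probe set. The brightest probe set of Sox4, 1373860_at, was at 1068 in neurons from co-culture and 985 in neurons alone, a log2 ratio of 0.12 that was within 1 SD (0.21). Its next, 1375123_at, was at 434 in neurons from co-culture and 820.4 in neurons alone. There the log2 ratio was -0.92, 1.89-fold lower and 3.44 SD, with 0.690% of the 1739 probe sets of its signal group as low. A further one, 1375257_at, lay below the filter at 109 in neurons from co-culture and 123 in neurons alone (-0.18). The signs thus differ between the 2 brighter readings, and no direction can be given for Sox4 as a gene. Sox11, its relative, had 104 in neurons from co-culture and 102 in neurons alone (1387275_at), both under the array medians. The ratio of 0.04 was a fraction of the SD.

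Ebf1 and Tlx3 were at low signal. Ebf1 had 95.4 in neurons from co-culture and 153 in neurons alone (1368949_at). Its ratio of -0.68 was 1.91 SD of dim probe sets, and 6.27% of the probe sets below the filter were as low. The ratios of 0 set by the floor narrow this SD and lower this share too. With the floor at the pooled 40th percentile the ratio became -0.36. A probe set annotated to both Ebf3 and Ebf1, which the choice by single symbol left out, read 81.5 in neurons from co-culture and 71.4 in neurons alone (0.19), the opposite sign. Tlx3 read 8.20 in neurons from co-culture and 10.2 in neurons alone, far under the floor in both, so the arrays give no ratio for it.

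**Figure D3:**
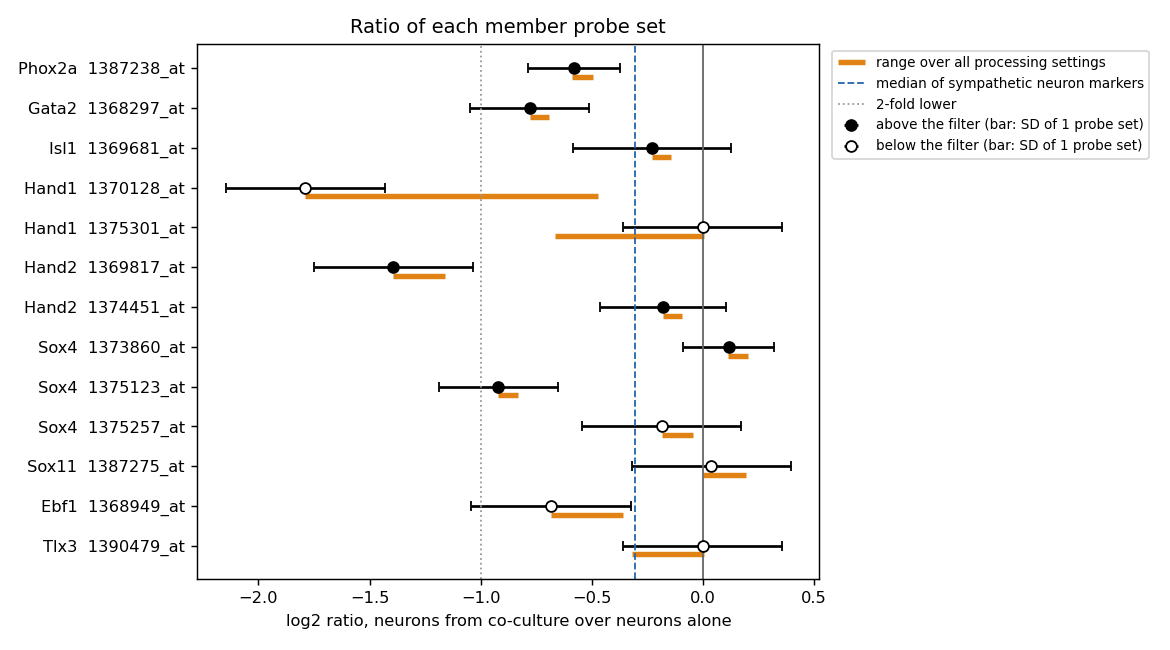
Log2 ratio of each member probe set (filled circles above the filter, open below), with a bar of 1 SD of a probe set at that signal and, in orange, the range over the main and 7 other settings for scaling and floor. The bars of Phox2a, Gata2, Ebf1 and 1 probe set each of Hand2, Sox4 and Hand1 stay below 0, and the orange range is wide for that Hand1 probe set (-1.79 to -0.47) and for Ebf1 (-0.68 to -0.36).

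The split within Hand2 and Sox4 was unusual among genes of these arrays. Among 749 genes that had 2 or more probe sets passing the filter, the highest and lowest log2 ratio of a gene differed by a median of 0.23, and 90% of genes were under 0.66. The difference was 1.21 for Hand2 and 1.04 for Sox4. Of the 749 genes, 17 (2.27%) had a range as large as that of Hand2 and 27 (3.60%) one as large as that of Sox4. Which stretch of the transcript each of these probe sets reads was not examined here. The members annotated with a RefSeq mRNA had a median of -0.68 above the filter (4 probe sets) and those annotated with another record -0.18 (3 probe sets). These 2 kinds share only Hand2 and otherwise hold different genes. Both Sox4 probe sets that differ (0.12 and -0.92) were annotated with another record. The -0.68 takes in the Hand2 probe set that passed the filter through neurons alone only. Over all named probe sets above the filter these 2 kinds had medians of -0.04 (1269 probe sets) and -0.02 (5956 probe sets), and a signal at least 2-fold lower in 19 (1.5%) of the first and 46 (0.77%) of the second, a difference that was not tested.

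**Figure D4:**
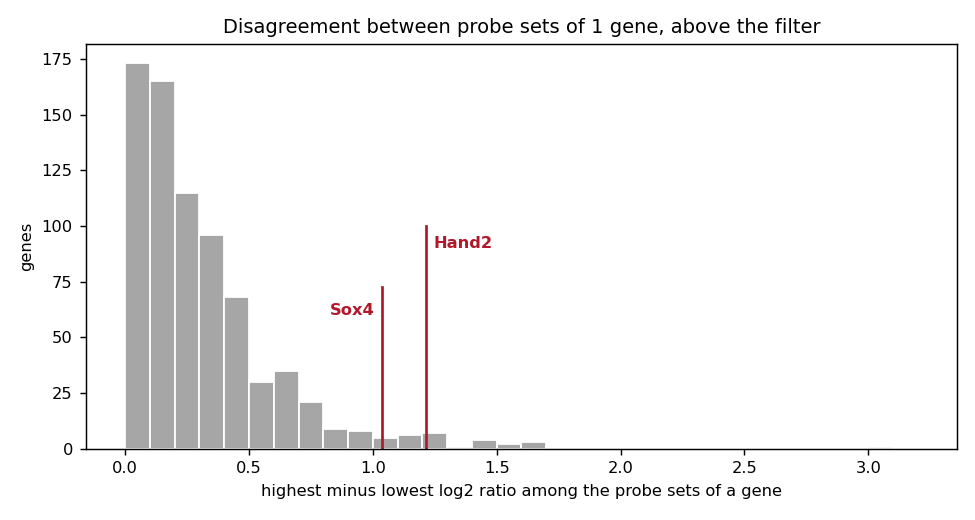
Number of genes by the difference between the highest and the lowest log2 ratio among their probe sets above the filter, over 749 genes. The median is 0.23; Sox4 at 1.04 and Hand2 at 1.21 lie in the right tail.

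By their brightest probe sets, the known targets of the network were lower in neurons from co-culture. Each of the 7 genes listed as noradrenergic targets was lower, with a median log2 ratio of -0.43. The 7 include Ret (-0.12), which codes for a receptor of GDNF family ligands and not for an enzyme or transporter of noradrenaline. Over the 6368 genes above the filter the median was -0.01, and 52.7% were lower. Th had 4575 in neurons from co-culture and 6175 in neurons alone, and Dbh had 1596 in neurons from co-culture and 2159 in neurons alone. Their log2 ratios, -0.43 and -0.44, differed from the -0.58 of Phox2a by less than 1 SD of a probe set (0.21). Whether the Phox2a ratio bears on those of Th and Dbh was not tested. Gch1, the enzyme behind the biopterin cofactor of Th, was 1.76-fold lower at 171 in neurons from co-culture and 299.9 in neurons alone. Gch1 passed the filter through neurons alone only, where it is high. The noradrenaline transporter gene Slc6a2 was 2.54-fold lower, at 217 in neurons from co-culture and 552 in neurons alone, and was the 1 target past 2-fold. Second probe sets were less clear for Slc18a2 (-0.02, against -0.31 on its brightest) and opposite for Ddc (0.29, against -0.40), where the Ddc one read 78.4 in neurons from co-culture and 64.0 in neurons alone, below the filter.

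The markers of sympathetic neurons in general were lower too. This held for each of the 9 measured markers, with log2 ratios from -0.62 to -0.12 and a median of -0.30, and their summed intensity was 29863 in neurons from co-culture and 35994 in neurons alone. Th and Dbh are on this list too. In RNA from a mixed culture, a smaller number of neurons and less RNA per neuron cannot be told apart. Relative to that median, the log2 ratio was -0.27 for Phox2a, -0.48 for Gata2, -1.09 and 0.13 for the Hand2 probe sets, -0.62 and 0.42 for the brighter Sox4 probe sets and 0.08 for Isl1. The differences that exceeded 1 SD of a probe set on the lower side were those of Phox2a, Gata2, 1 Hand2 and 1 Sox4 probe set. On the higher side it was that of the brightest Sox4 probe set (SD 0.21). For Phox2a this depended on the scaling. Under quantile normalization Phox2a was at -0.58 with a marker median of -0.40, and under lowess at -0.59 with -0.41. In both settings the gap was under the SD of 0.21. Below the filter, Hand1 (-1.49) and Ebf1 (-0.38) also exceeded their SD of 0.36 on the lower side, but with the floor at the pooled 40th percentile these became -0.17 and -0.06.

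Markers of other cells were present in both arrays. The 11 fibroblast genes had a summed intensity of 46994 in neurons from co-culture and 41152 in neurons alone, 9 higher and 2 lower, with a median ratio of 0.14. Their brightest were Col1a1, Col1a2 and Vim, whose ratios of 0.11, 0.08 and 0.05 turned negative in 1 or more other scalings of the arrays (down to -0.05, -0.07 and -0.09). The largest differences were those of Mgp (1603 in neurons from co-culture and 412 in neurons alone, 3.89-fold higher), Dcn (2.13-fold higher), Lum (0.80) and, on the lower side, Tcf21 (-0.67), and these kept their sign in every scaling run. Tcf21 passed the filter through neurons alone only, where it is high. Mgp and Dcn were the 2 members of this list past 2-fold. The 17 measured cardiac genes summed to 2925 in neurons from co-culture and 2524 in neurons alone. Of these 6 were above the filter (4 higher, 2 lower, median 0.24) and 4 (Tnni3, Actn2, Ryr2 and Tbx5, named after their values were seen) were under the floor in both arrays. Among those higher in neurons from co-culture, Nppb, above the filter, read 309 in neurons from co-culture and 179.9 in neurons alone (0.78). Below the filter the ratios, likewise picked with values known, were 1.58 for the light chain gene Myl2 and 0.85 and 0.82 for the heavy chain genes Myh6 and Myh7. The other probe sets of these 3 genes were under the floor in both arrays. Also below the filter, Ttn went the other way (-0.62), and Myl7 (-0.03) and Nkx2-5 (0.04) were near 0. Over all 17 cardiac genes, 9 were higher and 4 lower. Nppa (atrial natriuretic peptide), by which the study judged myocyte carry-over, read 201 in neurons from co-culture and 178 in neurons alone. Nppa and Nppb passed the filter through neurons from co-culture only, where they are high. Hand1, Hand2 and Gata4 are also factors of heart muscle, and Gata4 read 647 in neurons from co-culture and 752 in neurons alone (-0.22, and -0.42 on its other probe set). Tnnt2, cardiac troponin T, read 408 in neurons from co-culture and 293 in neurons alone, and Mef2c, a heart and muscle factor, 319 in neurons from co-culture and 260.1 in neurons alone. The other probe set of Tnnt2, below the filter, was at -0.43, and that of Mef2c at 0.04.

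The 7 measured glial genes summed to 2120.3 in neurons from co-culture and 1804 in neurons alone, with 4 of the 5 above the filter higher (median 0.11). Of those 5, 3 reached the median in both arrays. Sox10, a factor of Schwann and satellite glia, was near equal at 750.1 in neurons from co-culture and 706 in neurons alone, while S100b was at 524 in neurons from co-culture and 263 in neurons alone, and Mbp at 324 in neurons from co-culture and 392 in neurons alone. The 9 smooth muscle and pericyte genes summed to 9266 in neurons from co-culture and 11084 in neurons alone, with 5 of the 7 above the filter lower (median -0.24), the brightest being Tagln, Acta2 and Myl9. The 2 higher were Pdgfrb, at 481 in neurons from co-culture and 340 in neurons alone (0.50, the largest difference of the 7), and Cnn1 (0.26). The 7 macrophage and leukocyte genes summed to 1082 in neurons from co-culture and 1268 in neurons alone, with 3 of 4 above the filter lower (median -0.30), led in brightness by Cd14, Cd68 and Aif1. Of those 4, 2 reached the median in both arrays, and Aif1 passed through neurons alone only. None of the 5 endothelial genes passed the filter, and they summed to 207 in neurons from co-culture and 225 in neurons alone. The 7 proliferation genes, Pcna, Cdk1 and Ccnb1 the brightest, summed to 8734 in neurons from co-culture and 8435 in neurons alone (median 0.04). The part of these other cells in the members' ratios was not tested.

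Other factors of the lineage were sparsely covered. Of 14 further lineage factors listed, 10, among them Insm1, had no probe set with a single symbol of that name and were not analysed here. Of the 4 measured, Gata3 and Tlx2 were above the filter. Gata3, the relative of Gata2 that sympathetic development needs in mouse, read 190 in neurons from co-culture and 197 in neurons alone, a ratio of -0.06 that turned to 0.03 under another scaling. Tlx2, a homeodomain factor of neural crest neurons, was 1.48-fold lower, at 284 in neurons from co-culture and 421 in neurons alone. The difference between Gata2 (-0.78) and Gata3 was not tested.

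Partners of the factors went both ways. Of 13 measured partners and cofactors, 9 were above the filter, 6 lower and 3 higher, with a median of -0.17 and none at 2-fold. Below the filter, the E-protein gene Tcf3, named after its values were seen, read 82.1 in neurons from co-culture and 11.0 in neurons alone, the second under the floor (ratio 1.05). The lowest above the filter was Zfpm1 (FOG1), a zinc finger partner of GATA proteins, at 145 in neurons from co-culture and 255 in neurons alone (-0.81, 1.75-fold lower). Zfpm1 passed the filter through neurons alone only, where it is high. Its other probe set was under the floor in both arrays. Zfp423, a partner of Ebf proteins, was at 184 in neurons from co-culture and 245 in neurons alone (-0.41, and -0.11 on another probe set). Ldb1, which bridges LIM homeodomain proteins such as Isl1, had a ratio of -0.21. The coactivator gene Ep300 had -0.20, and -0.57 on another probe set, below the filter.

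Genes that oppose bHLH factors were split in direction. Of 5 above the filter, 3 were higher and 2 lower, with a median of 0.09, while 52.7% of all genes above the filter were lower. Id2, which sequesters the E-protein partners of bHLH factors, was at 961 in neurons from co-culture and 679.8 in neurons alone (0.50), but at -0.03 on another probe set. Id1 had a ratio of 0.09. The Notch-responsive repressor Hes1 was at 391 in neurons from co-culture and 315 in neurons alone (0.31), whereas Hes5 was at 149.7 in neurons from co-culture and 217 in neurons alone (-0.53). Hes5 passed the filter through neurons alone only, where it is high.

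Upstream, receptors and Smads of BMP signalling above the filter gave no common direction. Of 12 measured genes, 7 were above the filter, 4 lower and 3 higher, with a median of -0.12 that turned positive in 1 of the 11 alternative settings (0.02). The 3 ligand genes Bmp2, Bmp4 and Bmp7 were below the filter, with ratios of -0.24, -0.10 and -0.38, and over all 12 genes 8 were lower and 4 higher. By brightest probe sets, the type I receptor gene Bmpr1a had the largest difference above the filter, at 151 in neurons from co-culture and 278 in neurons alone (-0.88, 1.84-fold lower). A second probe set of Smad7 was lower still, at -1.37, against 0.08 on its brightest. That probe set and Bmpr1a passed the filter through neurons alone only, where they are high. The related receptor gene Acvr1 was at 0.24, the inhibitory Smad6 at -0.22 and the signal transducer Smad5 at -0.13. Neuronal genes linked to SoxC factors (Sox4 and Sox11), or that mark the same stage, had a median of -0.16. Of these, 6 of 8 were lower, beside 52.7% of all genes above the filter. With all probe sets of a gene averaged, the median of this list was -0.31. Elavl4, a neuronal RNA-binding protein, was 1.46-fold lower, the neurofilament gene Nefm 1.42-fold and the stathmin Stmn2 1.28-fold, while Dcx, a microtubule protein of immature neurons, was higher at 345 in neurons from co-culture and 280.3 in neurons alone (0.30).

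**Figure D5:**
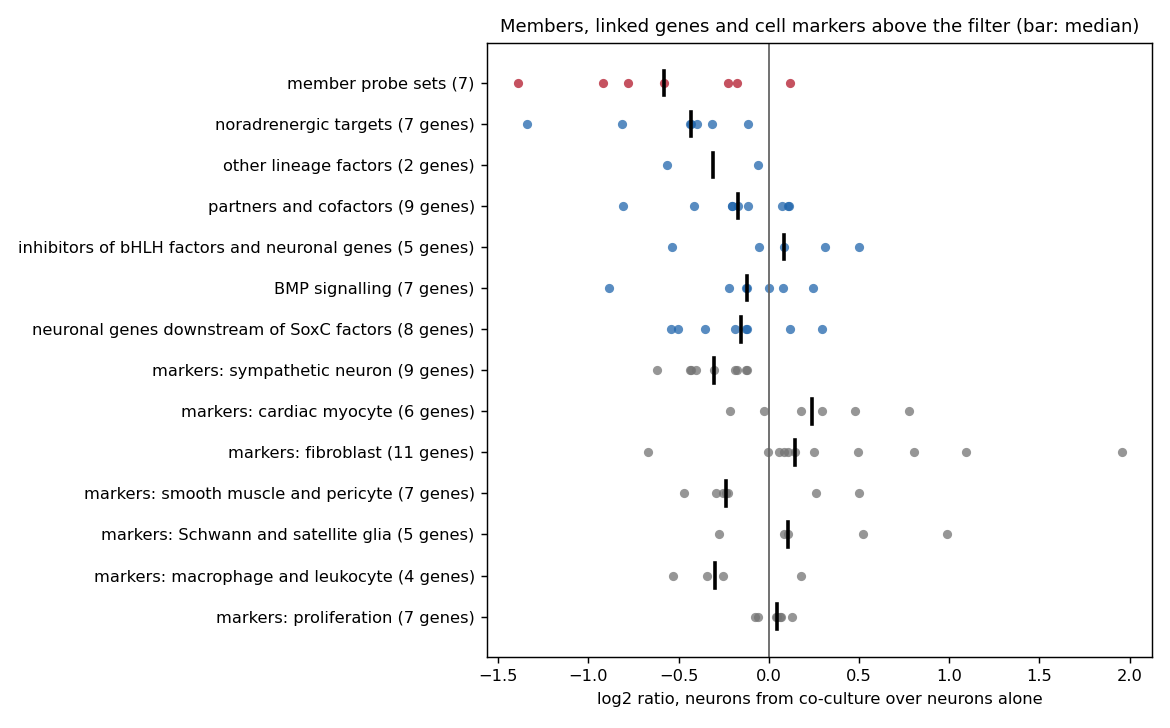
Log2 ratio (co-culture over alone) for the 7 member probe sets above the filter (top row) and for genes of linked lists and cell markers, each point a gene on its brightest probe set and each bar a median. The median is -0.58 over the member probe sets but -0.23 over the 5 member genes on their brightest probe set, the basis of the other rows, where the noradrenergic targets have -0.43, the neuron markers -0.30 and the fibroblast genes 0.14; lists share some genes.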

How the data were processed

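Per the labels, RNA of 2 samples was biotin-labelled and hybridised to 1-colour Affymetrix Rat 230A arrays, 1 per condition. The authors deposited intensities on a linear scale, quantified with dChip 1.3 per the series' design text, while the submitters' processing notes name MAS5. Which of them made the values, and their scaling target and detection calls, is not given in the sources used here. The number of arrays limits the precision.

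After 57 of 15923 probe sets were set aside as controls, 15866 remained. The platform annotation named a single gene for 12783, several for 312 and none for 2771, and symbols were updated by gene identifier to the GRCr8 RefSeq table. The deposited intensities were not scaled further, were floored at 39.6 and put on the log2 scale, and the difference of co-culture minus alone was taken for each probe set. Each gene was read from its brightest probe set. No test was possible with 1 array per condition. The SD of 1 probe set was the SD of the difference between a gene's brightest and next probe set divided by the square root of 2, in 4 groups by signal. The steps were tested on simulated data.

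All 9 members were named on every probe set. From each list up to 4 genes with the largest ratio above the filter could be named, from each marker list up to 3 of the brightest, and Th, Dbh and Nppa whatever their values. The members and lists were chosen with earlier results of these data known. Alternatives were quantile normalization, scaling to equal medians or 2% trimmed means, lowess (span 0.3), a higher floor (40th percentile), no floor with or without a pseudocount, filters at the 25th percentile or none, the mean over probe sets, and no probe sets for several transcripts. Python 3.11.15, numpy 2.4.6, pandas 2.3.3 and statsmodels 0.14.6 were used.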

Additional observations from a re-analysis of the deposited data

How the results depend on the processing

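Of 263 values recomputed under 11 alternative settings, 257 stayed within the spread of a probe set or, for counts, within 1.5 times, and 6 moved further. The log2 ratio of the brighter Hand1 probe set was -1.79 and became -0.47 under a floor set to the 40th percentile and -1.23 with a pseudocount of the floor value, since its signal in co-culture is close to the floor. The other Hand1 probe set, which has no ratio with the floor, was at -0.67 without it. The number of member probe sets at least 2-fold lower was 1, and 2 with no filter or with the filter at the 25th percentile, which let Hand1 in. The median of the member genes was -0.23, and -0.58 when all probe sets of a gene were averaged, which brings in the lower Hand2 and Sox4 probe sets. Over the scaling, floor and pseudocount settings Phox2a stayed between -0.59 and -0.49, Gata2 between -0.78 and -0.69, and the lower Hand2 probe set between -1.39 and -1.16. None of the 3 changed sign in these settings. Scaling to equal medians moved the median of all probe sets above the filter by 0.09. No paired analysis was possible because each condition had 1 array. Without replicate arrays, none of these settings says how far another pair of cultures would differ.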

Other observations

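Smad7 split between probe sets by as much as Hand2 and Sox4 did, and was picked with the other genes here after values were seen. This gene, an inhibitor of TGF-beta and BMP signals, was at 260 in neurons from co-culture and 247 in neurons alone on its brightest probe set (log2 ratio 0.08). On another above the filter it was at 77.6 in neurons from co-culture and 201 in neurons alone (-1.37), a range of 1.45, and on the last, below the filter, at -0.63. The Smad7 probe set at -1.37 passed the filter through neurons alone only, where it is high. Smaller ranges were seen in 2 others. Tcf4, an E-protein partner of bHLH factors, had a ratio of 0.11 by its brightest probe set and of -0.29 by a second, read at 335 in neurons from co-culture and 408 in neurons alone. For Ret, the receptor of GDNF family ligands in sympathetic neurons, the 3 probe sets above the filter had 1 sign, at -0.12, -0.18 and -0.47.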
